A study of Homo sapiens with 6 samples.

Results

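Aminoacyl-tRNA synthetases attach each amino acid to its own tRNA, the step that sets the meaning of the genetic code before the ribosome reads it. Human cells keep one enzyme set for the cytosol (symbols ending in 1) and another for the mitochondrial matrix (symbols ending in 2), both encoded in the nucleus. Several cytosolic enzymes sit in a multi-synthetase complex held together by non-catalytic scaffold proteins. When amino acids run short or proteins misfold, the transcription factor ATF4 induces many of the cytosolic enzymes together with genes of amino acid synthesis and transport.

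The genes were chosen by symbol: a letter followed by ARS and an optional 1 or 2, plus FARSA and FARSB (the subunits of cytosolic phenylalanyl-tRNA synthetase), EPRS1 and the scaffold proteins AIMP1, AIMP2 and EEF1E1. Of 40 human genes that meet this rule, 36 were measured among 22465 genes: 19 cytosolic enzymes, 16 mitochondrial enzymes and AIMP1. The other 4 were not analysed here. Each gene is represented by one transcript cluster, the brightest of those annotated to that gene alone.

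The PM2.5 arrays carried RNA of AC16 cells after 24 h with 50 µg/mL PM2.5 (airborne particles of up to 2.5 µm), as 3 replicates. The control arrays carried RNA of control AC16 cells, also as 3 replicates, with no treatment named. AC16 is an immortal line made by fusing cells of adult human ventricle with virus-transformed human fibroblasts, and every sample is this 1 line. The sample titles call the replicates biological but do not say whether they were grown separately. A p-value here covers the variation among these 6 arrays, part of which may be technical. In bulk RNA, fewer cells and less RNA per cell cannot be told apart. The values are log2 RMA intensities, in which a step of 1 is a doubling.

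The arrays fell into 2 sets by a technical measure that cuts across treatment. The mean of 8 spike-in control probe sets was 10.2 on PM2.5 replicates 2 and 3 and 10.3 on control replicate 3, which form the low spike-in set. It was 10.7 on PM2.5 replicate 1 and 10.9 on control replicates 1 and 2, the high spike-in set. A gene counts as above background when it exceeded a cutoff of 5.66, the highest background probe set, on at least 3 arrays. This cutoff was set by control replicate 1 alone. Background maxima elsewhere were lower, from 4.68 (control replicate 2) to 5.14 (PM2.5 replicate 2). Of the line's markers, 0 of 7 measured cardiomyocyte genes (among them MYH6, MYH7 and ACTN2) and 4 of 7 fibroblast genes (COL1A1, COL1A2, VIM and PDGFRB) were above background. So were 2 of 5 epithelial genes (KRT8 and KRT18), 1 of 4 leukocyte genes (CD68) and 0 of 5 endothelial genes. The metallothionein gene MT1X, which responds to metals, read 11.7, 11.4 and 11.4 after PM2.5, against 8.86, 9.86 and 8.34 in controls. It was chosen as a check because its large response was already known. Its log2 difference of 2.47 (SE 0.40) did not reach an adjusted p under 0.05 in limma.

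Sequence near the start sites is shown first because it marks which enzymes carry the letters of the ATF4 response element. RefSeq windows (GRCh38.p14), all of 1 length and spanning a start site, were found for 31 of the 36 genes. The element's core was searched as TGATGCAA on both strands, and more loosely as TGATGNAA, which includes it. TGATGCAA was present for 6 of 16 cytosolic enzymes with a window and 0 of 14 mitochondrial ones. It occurred in 0.866% of all 35116 windows and for 1.08% of all 27305 genes with one. The 6 are shown on the strand of the gene with the core in capitals, written TTGCATCA where it lies on the opposite strand.
AARS1 (chr16:70289660-70289719, minus strand): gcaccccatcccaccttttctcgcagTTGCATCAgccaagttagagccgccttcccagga
IARS1 (chr9:92293677-92293736, minus strand): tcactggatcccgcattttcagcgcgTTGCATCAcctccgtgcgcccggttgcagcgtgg
CARS1 (chr11:3057399-3057458, minus strand): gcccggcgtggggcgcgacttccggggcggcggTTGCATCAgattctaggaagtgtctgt
MARS1 (chr12:57488033-57488092, plus strand): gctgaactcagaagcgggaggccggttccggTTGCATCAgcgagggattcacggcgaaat
TARS1 (chr5:33440930-33440989, plus strand): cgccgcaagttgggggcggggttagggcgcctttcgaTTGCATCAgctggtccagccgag
NARS1 (chr18:57621812-57621871, minus strand): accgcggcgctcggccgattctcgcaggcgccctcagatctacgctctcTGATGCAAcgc
The core begins 187 bases before the start of AARS1, 13 before that of IARS1, 4 before MARS1 and 2 before CARS1, and lies just inside the transcript for TARS1 and NARS1. The looser form added GARS1 and the mitochondrial YARS2, giving 8 of 31 genes against 4.46% of all genes. A match of letters is a description and does not show that ATF4 binds there. Of the other ATF4 targets listed for this work, 2 of 19 with a window held TGATGCAA and 6 held TGATGNAA.

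HARS1 and HARS2, the cytosolic and mitochondrial histidyl-tRNA synthetases, are shown because the pair is read in opposite directions from one stretch of DNA. Their start sites lie 85 bases apart on opposite strands, and their windows overlap over 184 bases. The stretch between the start sites is in capitals, on the plus strand, with HARS1 read to the left from its left end and HARS2 to the right from its right end.
HARS1 and HARS2 (chr5:140691355-140691470): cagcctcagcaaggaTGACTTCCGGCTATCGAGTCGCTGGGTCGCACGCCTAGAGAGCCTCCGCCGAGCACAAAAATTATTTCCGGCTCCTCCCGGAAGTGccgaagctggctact

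The measured cytosolic enzymes all counted as above background in AC16, and most of the mitochondrial ones did not. Some cytosolic enzymes cleared the cutoff narrowly. The lowest reading was 5.74 for LARS1 and 5.75 for TARS1, and HARS1 read 5.79 to 5.96. Above background were 19 of 19 cytosolic and 5 of 16 mitochondrial enzymes (CARS2, FARS2, IARS2, NARS2 and TARS2), against 20.2% of protein-coding genes. By the common cutoff, AIMP1 and 9 mitochondrial enzymes stayed within background on every array, and PARS2 exceeded it on 1 array and RARS2 on 2. These counts depend on that cutoff. Judged by the maximum of each array separately, PARS2 and SARS2 lay above background everywhere except on control replicate 1. AIMP1 did so only on control replicates 2 and 3. A reading within background does not show that a gene is silent. Signals of different genes depend on their probes, so levels are not ranked between genes. No synthetase gene reached the highest deposited value. Some other genes, such as EEF1A1 and VIM, gave equal readings on several arrays below that value. Of the synthetase genes YARS1 alone did, at 9.23 on PM2.5 replicate 1 and control replicate 1, below its 9.65 on control replicate 3. Equal readings alone do not show saturation, which was neither excluded nor tested for the synthetase genes. Alone among them VARS1, which lies in the major histocompatibility region, had several clusters (7, on the reference and alternative haplotypes). Their PM2.5 minus control differences ran from -0.06 to 0.10 log2, with the brightest, used here, at 0.10.

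After PM2.5, no synthetase gene passed the test, and the genes lay on both sides of no difference. In limma, 0 of 36 had an adjusted p under 0.05 (adjusted p = 1 for each), against a background of 0% of all genes. AIMP1 and PARS2 had an unadjusted p under 0.05, against 2.11% of all genes. The log2 difference was positive for 19 genes and negative for 17, with a median of 0.0065 and extremes of -0.29 (PARS2) and 0.61 (AARS1). Over all genes the median was -0.0099, and over the 4150 genes above background it was 0.01. The groups did not overlap for 1 gene in the higher direction (AARS2), where the background was 1.95%, and for 3 in the lower (AIMP1, RARS1 and PARS2), where it was 3.37%. Among the 24 synthetase genes above background these counts were 0 (background 1.78%) and 1 (RARS1, background 1.49%).

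The lower differences that did not overlap involved a scaffold protein, an enzyme of the same complex and a mitochondrial enzyme. AIMP1, the scaffold protein that binds tRNA and anchors RARS1 in the complex, read 4.89, 4.90 and 4.90 after PM2.5, against 5.16, 5.10 and 5.13 in controls. Its replicates differed by far less than the groups, but every reading lay within background. The log2 difference was -0.23 (SE 0.05, limma unadjusted p = 0.00312, adjusted p = 1). Within the high spike-in set it was -0.24 and within the low set -0.23, and it lay between -0.25 and -0.21 in all alternatives in which the gene was kept.

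RARS1, cytosolic arginyl-tRNA synthetase, read 6.69, 6.73 and 6.72 after PM2.5, against 6.90, 6.82 and 7.06 in controls. All its readings were above background, and the PM2.5 arrays lay close together below the lowest control. The log2 difference was -0.21 (SE 0.12, limma adjusted p = 1), at -0.16 within the high and -0.33 within the low spike-in set. PARS2, mitochondrial prolyl-tRNA synthetase, read 5.25, 5.14 and 5.30 after PM2.5, against 5.42, 5.75 and 5.39 in controls. Its log2 difference was -0.29 (SE 0.11, limma unadjusted p = 0.0430, adjusted p = 1), and control replicate 2 stood above the rest.

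**Figure D1:**
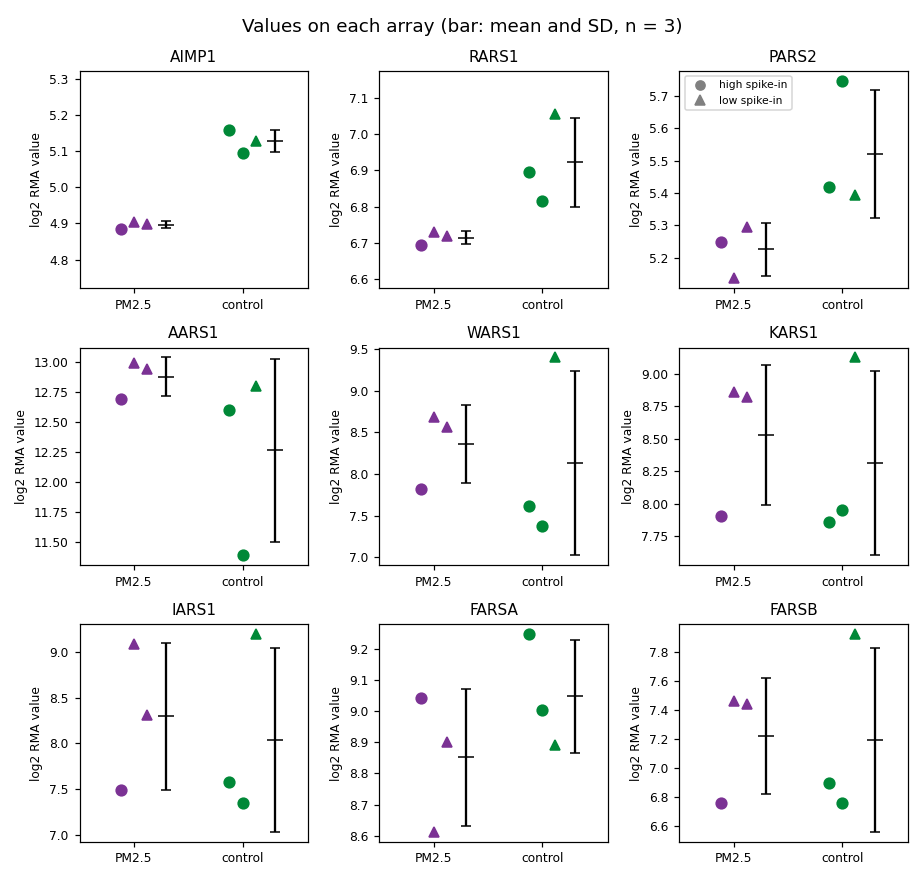
Log2 RMA value of 9 synthetase genes on each array, PM2.5 at left and control at right in each panel, with the mean and SD (n = 3 each) as a bar beside the points. Circles are high and triangles low spike-in arrays, and AIMP1, RARS1 and PARS2 show PM2.5 points below every control point.

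Among the cytosolic enzymes, the largest positive difference rested on 1 control array. AARS1, alanyl-tRNA synthetase, read 12.70, 13.00 and 12.95 after PM2.5, against 12.60, 11.40 and 12.81 in controls. Control replicate 2 stood more than 1 log2 unit below every other array, and the groups overlapped. The log2 difference was 0.61 (SE 0.38, 1.53-fold, limma adjusted p = 1), and it was 0.17 without control replicate 2.

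SARS1, seryl-tRNA synthetase, which also charges the selenocysteine tRNA, read 7.54, 8.12 and 7.79 after PM2.5, against 7.23, 7.06 and 8.13 in controls. QARS1, glutaminyl-tRNA synthetase, read 9.95, 10.30 and 10.33 after PM2.5, against 9.97, 9.60 and 10.33 in controls. The groups overlapped in both genes, and control replicate 3, of the low spike-in set, was the highest array in each. Their log2 differences were 0.34 (SE 0.33) for SARS1 and 0.23 (SE 0.25) for QARS1, and neither passed.

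On the negative side, FARSA, the alpha subunit of phenylalanyl-tRNA synthetase, read 9.04, 8.61 and 8.90 after PM2.5, against 9.25, 9.003 and 8.89 in controls (log2 difference -0.20, SE 0.20). HARS1 read 5.79, 5.88 and 5.83 after PM2.5, against 5.81, 5.87 and 5.96 in controls (log2 difference -0.05, SE 0.08). HARS2, which shares its start region, read 4.92, 5.11 and 5.03 after PM2.5, against 4.88, 4.93 and 5.23 in controls (log2 difference 0.0082, SE 0.11). Neither of the histidyl pair differed by more than its standard error, and HARS2 lay within background.

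Some enzymes supply both compartments from 1 gene, and the array cannot separate their isoforms here. GARS1, glycyl-tRNA synthetase, read 11.42, 12.04 and 11.97 after PM2.5, against 11.35, 11.39 and 12.16 in controls. KARS1, lysyl-tRNA synthetase, read 7.91, 8.86 and 8.82 after PM2.5, against 7.86, 7.95 and 9.13 in controls. Both were low on the high spike-in arrays of either group and high on the low spike-in arrays. Their log2 differences were 0.17 (SE 0.30) and 0.22 (SE 0.44), and with the spike-in set as a block they were -0.06 (SE 0.10) and -0.14 (SE 0.12).

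WARS1, tryptophanyl-tRNA synthetase, which is also induced by interferon gamma, read 7.82, 8.69 and 8.56 after PM2.5, against 7.62, 7.37 and 9.40 in controls. The control arrays spanned a wider range than the PM2.5 arrays. Its log2 difference was 0.23 (SE 0.58), at 0.32 within the high and -0.77 within the low spike-in set. The remaining 10 cytosolic enzymes (CARS1, EPRS1, FARSB, IARS1, LARS1, MARS1, NARS1, TARS1, VARS1 and YARS1) had log2 differences from -0.09 to 0.31, with overlapping groups.

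The differences of the mitochondrial enzymes spanned a narrower range than those of the cytosolic ones. TARS2, threonyl-tRNA synthetase, read 7.05, 6.94 and 7.03 after PM2.5, against 6.88, 6.59 and 7.01 in controls (log2 difference 0.18, SE 0.15). FARS2, phenylalanyl-tRNA synthetase, read 6.09, 6.32 and 6.32 after PM2.5, against 6.14, 5.99 and 6.30 in controls (log2 difference 0.10, SE 0.12). The groups overlapped in both genes.

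AARS2 read 4.81, 4.80 and 4.80 after PM2.5, against 4.78, 4.71 and 4.80 in controls. Its groups barely missed overlapping, with a lowest PM2.5 reading of 4.7962 and a highest control reading of 4.7955, and all readings were within background. RARS2, arginyl-tRNA synthetase, read 5.30, 5.70 and 5.51 after PM2.5, against 5.47, 5.44 and 6.00 in controls (log2 difference -0.14, SE 0.19), and overlapped. EARS2, glutamyl-tRNA synthetase, read 4.51, 4.58 and 4.51 after PM2.5, against 4.61, 4.48 and 4.83 in controls (log2 difference -0.11, SE 0.09), within background. The other 10 lay between -0.06 and 0.15, among them IARS2, isoleucyl-tRNA synthetase, at 0.0048 with an SE of 0.43.

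**Figure D2:**
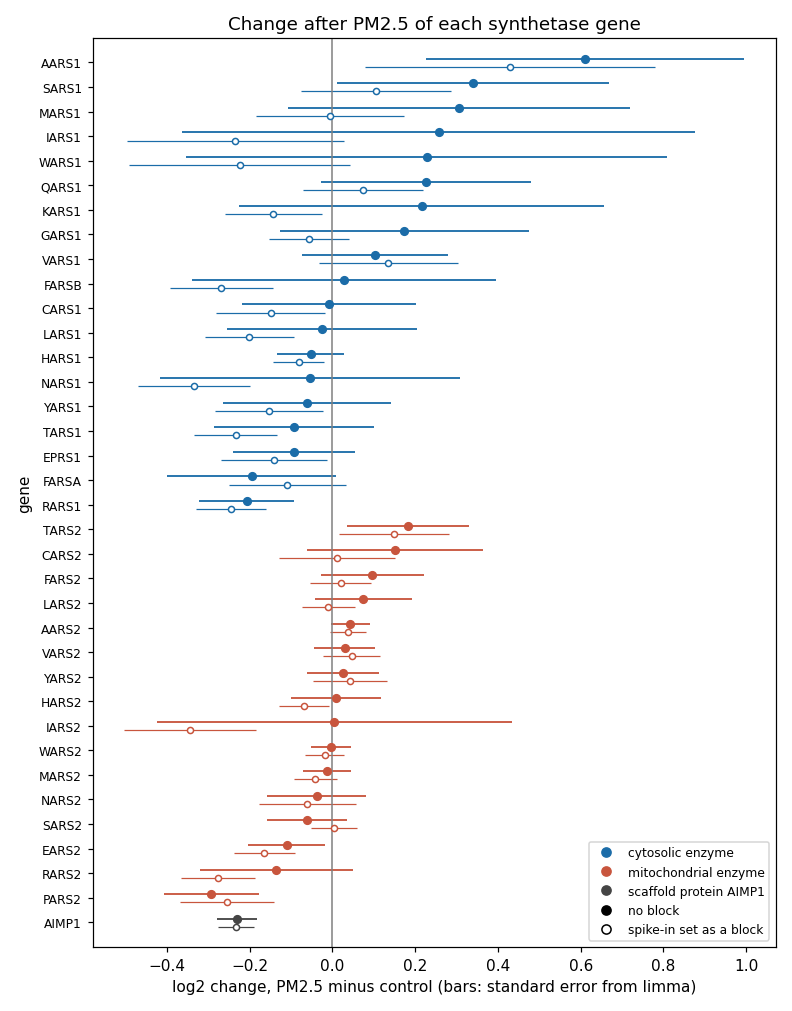
Log2 difference, PM2.5 minus control, of each synthetase gene with its standard error from limma, cytosolic enzymes at the top, then mitochondrial enzymes, then AIMP1. Filled points are without and open points with the spike-in set as a block, and most cytosolic open points lie left of 0.

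As a group, cytosolic and mitochondrial enzymes had medians near 0. The median log2 difference was 0.03 over 19 cytosolic enzymes (10 positive, 9 negative) and 0.0065 over 16 mitochondrial enzymes (9 positive, 7 negative). The gap of 0.02 between the medians is small beside 0.23, the SD of that gap between arrays of a group. Standard errors were wider for the cytosolic enzymes, with a median of 0.25 against 0.11 for the mitochondrial ones, most of which lay within background.

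By the fold of the catalytic domain, 18 class I enzymes had a median of 0.02 and 16 class II enzymes a median of 0.02. Of the multi-synthetase complex, 8 of 11 genes were measured, with a median of 0.10 (4 positive, 4 negative). The 12 cytosolic enzymes outside it had a median of 0.0099. None of these lists held a gene past the test.

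With the spike-in set as a block the balance turned towards negative differences, as it did for detected genes in general. In that fit 15 of 19 cytosolic enzymes were negative (median -0.14), and 9 of 16 mitochondrial enzymes (median -0.01). Of the 4150 genes above background 2656 were negative, with a median of -0.05. No synthetase gene passed in limma (background 0%), with adjusted p between 0.862 and 1. AIMP1, RARS1 and RARS2 had an unadjusted p under 0.05, against 5.76% of all genes.

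The cytosolic median had a different sign within each spike-in set. Among the high spike-in arrays (PM2.5 replicate 1 against control replicates 1 and 2) 11 of 19 were higher after PM2.5, with a median of 0.02. Among the low spike-in arrays (PM2.5 replicates 2 and 3 against control replicate 3) 17 of 19 were lower, with a median of -0.26. VARS1 and AARS1 were the exceptions there, at 0.03 and 0.16. All 8 measured genes of the complex were lower among the low spike-in arrays, with a median of -0.27. Of the 4150 genes above background 3011 were lower there, and 2605 of the 3407 protein-coding ones. Among the high spike-in arrays 2280 of the 4150 were higher.

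The genes above background had the same signs, with medians of 0.02 within the high and -0.12 within the low spike-in set. Of the 24 synthetase genes above background, 11 were higher within the high and lower within the low set, against 39.5% of all genes above background. Each of these differences sets a lone array against a pair and is given without an error. The difference between the sets was tested in limma as an interaction, chosen after the data were examined. It passed for 0 of 36 genes (background 0%), and CARS1 and WARS1 had an unadjusted p under 0.05, against 6.45% of all genes.

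**Figure D3:**
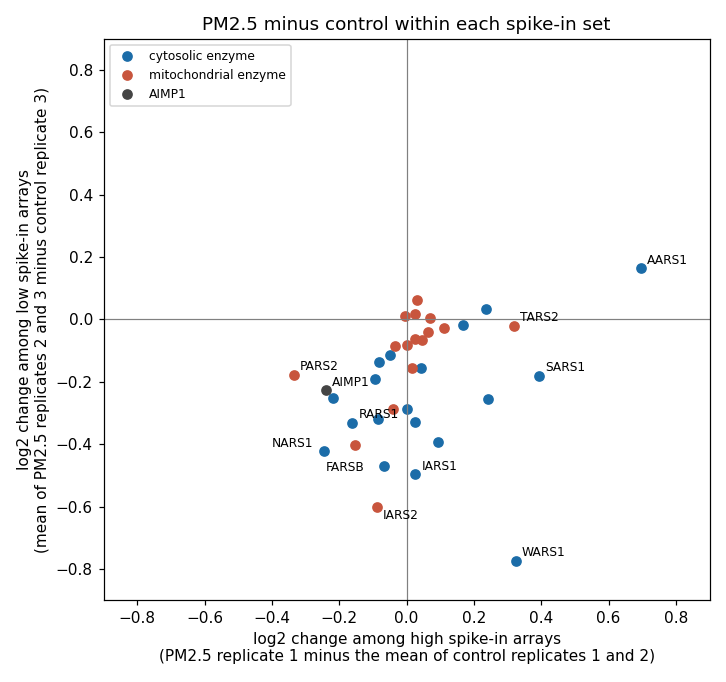
Log2 difference, PM2.5 minus control, among high (horizontal) and low spike-in arrays (vertical), 1 point for each synthetase gene. AARS1 lies at 0.70 and 0.16 and WARS1 at 0.32 and -0.77, and most cytosolic points lie below 0 on the vertical axis.

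The synthetase genes varied more between the spike-in sets than between PM2.5 and control. In limma with treatment as a covariate, 9 of 36 were higher in the low than in the high spike-in set at an adjusted p under 0.05, and 0 were lower. The background was 5.40% higher and 2.65% lower over all genes. Of the 24 synthetase genes above background the same 9 passed, where 20.4% of all genes above background and 23.7% of the protein-coding ones were higher, and 6.70% were lower. The 9 were the cytosolic FARSB, GARS1, IARS1, KARS1, LARS1, MARS1, NARS1 and WARS1 and the mitochondrial IARS2.

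IARS1, cytosolic isoleucyl-tRNA synthetase, read 9.09, 8.31 and 9.19 on the low spike-in arrays (PM2.5 replicates 2 and 3 and control replicate 3). It read 7.49, 7.57 and 7.35 on the high spike-in arrays (PM2.5 replicate 1 and control replicates 1 and 2). The fitted difference was 1.47 log2 (SE 0.26, 2.78-fold, limma adjusted p = 0.0394). Its mitochondrial counterpart IARS2 read 6.58, 6.23 and 7.01 on the low and 5.61, 5.74 and 5.66 on the high spike-in arrays, a fitted difference of 1.05 log2 (SE 0.16, adjusted p = 0.0313). In both isoleucyl enzymes the sets did not overlap, whatever the treatment.

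WARS1 differed by 1.36 log2 (SE 0.27, limma adjusted p = 0.0464) and KARS1 by 1.08 (SE 0.12, adjusted p = 0.0224). The subunits of phenylalanyl-tRNA synthetase, which work as one enzyme, went opposite ways. FARSB read 7.46, 7.44 and 7.92 on the low and 6.76, 6.90 and 6.76 on the high spike-in arrays, a difference of 0.89 log2 (SE 0.12, limma adjusted p = 0.0285). FARSA read 8.61, 8.90 and 8.89 on the low and 9.04, 9.25 and 9.003 on the high spike-in arrays, a difference of -0.26 (SE 0.14) that did not pass.

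The most negative differences after FARSA were those of SARS2, mitochondrial seryl-tRNA synthetase (-0.19, SE 0.06, within background), and PARS2 (-0.11, SE 0.11), and neither passed. The median over the cytosolic enzymes was 0.53 and over the mitochondrial ones 0.09, against 0.27 over protein-coding genes above background, 0.17 over all genes above background and -0.04 over all genes. Of the cell type markers, the collagen gene COL1A1 was 2.30-fold higher in the low spike-in set (limma adjusted p = 0.0488) and no other passed. The macrophage marker CD68 had a 2.24-fold difference (adjusted p = 0.108), while the fibroblast markers THY1, DCN and LUM, all within background, had log2 differences of -0.15, -0.20 and -0.11. The median over the 7 fibroblast markers was 0.01.

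The summed log2 levels of every marker list separated by spike-in set, as did many single genes. Of all 22465 genes, 3652 were higher and 5405 lower in the low set without overlap. Among the 4150 above background these counts were 1882 and 774. The 7 fibroblast markers summed to 45.5 to 46.3 in the low and 42.1 to 44.0 in the high set, and the 4 leukocyte markers to 21.4 to 22.0 in the low and 20.5 to 21.3 in the high set. Of the leukocyte markers CD68 alone was higher in the low set. PTPRC, CD14 and CD3E, all within background, had log2 differences of -0.11, -0.12 and -0.18. The sums were lower in the low set for 5 epithelial markers (40.6 to 41.0, against 41.9 to 42.1), 7 cardiomyocyte markers (27.7 to 27.8, against 28.1 to 28.2) and 5 endothelial markers (19.49 to 19.95, against 20.04 to 20.09). All measured cardiomyocyte and endothelial markers lay within background. The part of other cell types in the set difference was not tested.

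The count of 9 rests on all arrays. It was 4 without PM2.5 replicate 3 (IARS1, KARS1, NARS1 and IARS2), 1 without control replicate 2 (KARS1) and 0 without each of PM2.5 replicates 1 and 2 and control replicates 1 and 3.

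**Figure D4:**
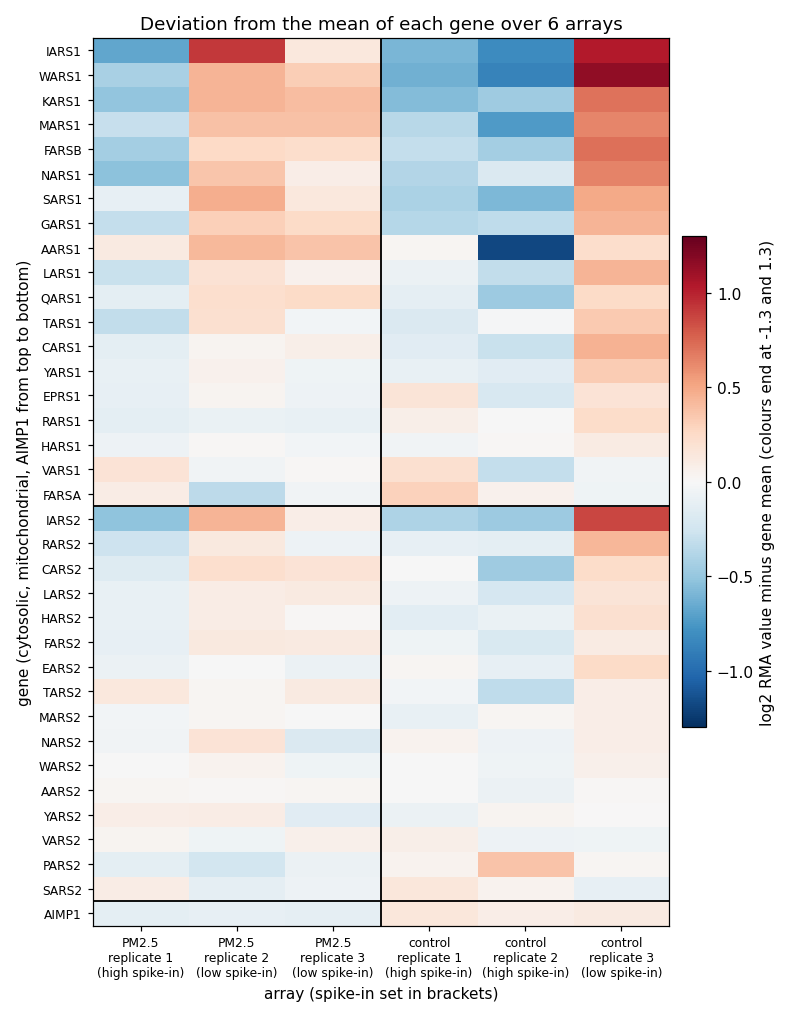
Deviation of each synthetase gene from its mean over the 6 arrays, in log2 units, with PM2.5 arrays at left and control arrays at right, and genes ordered within each class by the difference between spike-in sets. Red columns at PM2.5 replicate 2 and control replicate 3 and blue ones at PM2.5 replicate 1 and control replicate 2 run across both treatments in the upper cytosolic rows.

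Genes known as ATF4 targets were listed beside the synthetases, since this factor links them to amino acid supply. Of 13 cytosolic enzymes known as ATF4 targets in human or mouse cells, 7 had a positive and 6 a negative PM2.5 minus control difference (median 0.10), and the 6 measured enzymes not usually named as such had a median of -0.01. The 6 with TGATGCAA near the start were mixed, with log2 differences of 0.61 (AARS1), 0.31 (MARS1), 0.26 (IARS1), -0.0079 (CARS1), -0.05 (NARS1) and -0.09 (TARS1). Of 21 other ATF4 targets, 0 passed and 18 were positive, with a median of 0.09, and with the spike-in set as a block 12 were positive, with a median of 0.0079.

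ATF3, a stress-induced transcription factor, read 4.75, 4.74 and 4.71 after PM2.5, against 4.69, 4.63 and 4.58 in controls, all within background. DDIT4, an inhibitor of growth signalling, read 7.07, 7.17 and 7.07 after PM2.5, against 6.97, 6.75 and 6.89 in controls. PHGDH, of serine synthesis, read 8.41, 8.38 and 8.38 after PM2.5, against 8.28, 8.01 and 8.33 in controls. In these 3 of the 21 genes the groups did not overlap, against 1.95% of all genes in the higher direction, and none of the 3 passed in limma (adjusted p = 1). Between the spike-in sets, 4 of the 21 were higher in the low set, all of them among the 16 above background, where 20.4% of genes were. They included ASNS, asparagine synthetase, higher by 0.78 log2 (SE 0.11, limma adjusted p = 0.0298), and PSAT1, of serine synthesis, by 2.23 log2 (adjusted p = 0.0221).

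ATF4 itself read 10.39 ± 0.0125 after PM2.5 and 10.33 ± 0.256 in controls (SD, n = 3 each). Of the 8 kinases and factors that start or end this stress signal, 0 passed and 3 were positive (median -0.05). The lowest p were those of EIF2AK3, the kinase of the endoplasmic reticulum (log2 difference -0.03), and PPP1R15A, a phosphatase subunit (-0.06). Both lay within background on every array.

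Other genes of tRNA charging differed as little. Of 5 measured genes for tRNA editing, maturation and export, 0 passed, and TRNT1, which adds the CCA end to tRNAs, read 4.59 ± 0.0457 after PM2.5 and 4.67 ± 0.00507 in controls (SD, n = 3 each). DTD2, which clears wrongly charged tRNAs, had a log2 difference of 0.03, and both genes lay within background. TARS3, a further threonyl-tRNA synthetase outside the naming rule, lay within background with a log2 difference of 0.01. Of 6 genes for charging and elongation in mitochondria, 0 passed, with differences from -0.06 (TSFM, an elongation factor) to 0.05 (QRSL1, a subunit of the amidotransferase that completes mitochondrial glutaminyl-tRNA). Of 6 genes of the selenocysteine tRNA route, SARS1 among them, 0 passed, and SEPHS2 and PSTK, both within background, had differences of -0.10 and -0.04. The groups did not overlap for TRNT1 and PSTK, both lower after PM2.5, as for 3.37% of all genes in that direction. Of the cytosolic elongation factors, EEF2 stood at the ceiling and EEF1A1 read 18.01 on all arrays, so no change could be seen in either, and EEF1D had a difference of -0.01.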

How the data were processed

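Labelled RNA of 6 samples was measured on Affymetrix arrays. The deposited values are log2 intensities, which the submitters' processing notes credit to RMA, a background correction, quantile normalization and probe summary. The software version and the array's genome build are not given in the sources used here. Of 67528 transcript clusters, 23781 had 1 gene symbol, and the brightest of a gene's clusters stood for it, giving 22465 genes. Symbols were checked by gene identifier against RefSeq (GRCh38.p14), which matched 21497 clusters and changed 0 symbols. Promoter sequences are RefSeq's.

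PM2.5 was compared with control in limma 3.58.1 (R 4.3.3; lmFit, eBayes with an intensity trend, Benjamini-Hochberg over all genes, adjusted p threshold 0.05), without block or filter. The fit was tested on simulated data, with no spike-in sets and with planted changes larger than any synthetase difference here. That test does not show how small a change the fit could find in these arrays. Arrays were split at the widest gap in mean spike-in signal. The genes and lists were chosen with earlier results of these data known, and lists got no test. By rule, values are given for the 3 lowest p in each direction among cytosolic and among mitochondrial enzymes, AIMP1, GARS1, KARS1, WARS1, HARS1, HARS2 and the 3 largest spike-in set differences each way, and of each further list for the 2 lowest p. MARS1, IARS2, FARSB, ASNS, PSAT1, ATF4, TARS3 and a few others were named after their values were seen. The number of arrays limits the precision.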

Additional observations from a re-analysis of the deposited data

How the results depend on the processing

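The count of synthetase genes past limma's test was 0 in the comparison as reported and in all 17 alternatives. These were other variance priors, scalings, filters and cluster choices, array weights, blocks and each array left out. Of 588 single-gene values, 517 kept their direction and 71 turned it without passing in either fit. In the alternatives that kept the gene, 12 held 1 direction, 6 higher and 6 lower, AIMP1, RARS1, PARS2 and AARS1 among them. Genes that did not count as above background, such as AIMP1 and PARS2, were not in the fits on genes above background. An unadjusted p under 0.05 was reached by 0 of them (genes above background) to 11 (array weights). Deviations from the group means, correlated across genes above background between replicates of equal number, gave r = 0.78 for number 1, -0.65 for number 2 and 0.77 for number 3. Numbers 1 and 3 lie in the same spike-in set in both groups and number 2 does not. These correlations therefore cannot show whether equal numbers mark paired arrays. With the replicate number as a block 0 genes passed, 594 had an unadjusted p under 0.05, and of the synthetases 1 did (AIMP1). The median of the mitochondrial enzymes was 0.10 among the 5 above background, and ran from -0.03 to 0.04 with 1 array left out. The cytosolic minus mitochondrial gap was 0.28 with array weights, and ran from -0.09 to 0.22 with 1 array left out. The array weights were uneven, at 6.03 for control replicate 1 and from 0.23 (control replicate 3) to 2.24 (PM2.5 replicate 3) for the other arrays. Array weights gave a cytosolic median of 0.32, and the spike-in block gave -0.14. With 1 array left out it ran from -0.12 (without control replicate 2) to 0.26 (without control replicate 3). The 9 synthetase genes that differed between spike-in sets became 0 to 4 with 1 array left out, and 1810 over all genes became 1 (without control replicate 3) to 827 (without PM2.5 replicate 3). With 1 array fewer 2 residual degrees of freedom remain, and the cause was not tested. The fit on genes above background with the set as a block, the interaction and the set comparison with arrays left out were chosen after the data were examined.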
